A study of Mus musculus with 9 samples.

Results

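Hyperoxia was compared with room air in 6 of the 9 libraries of the series: 3 of cells kept in 85% oxygen (HO) and 3 of cells kept in 21% oxygen (RA), both for 48 h and without added protein. All 9 libraries were made from purchased mouse cells (supplier IMMOCELL) that the labels call lung microvascular endothelial cells (PMVECs), and the other 3 (HO-rWNT5A) received recombinant WNT5A at 100 ng/ml in 85% oxygen. The members were taken by their treatment labels, so no measured value chose them. Total RNA was sequenced as paired reads, and the authors' table gives FPKM (read pairs relative to the length of a transcript and the size of its library) per transcript, summed here per gene. The lot, passage and sex of the cells are not given in the sources used here. Whether replicates were grown as separate cultures is not stated, so p-values reflect only library-to-library scatter, part of which may be technical.

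Excess oxygen raises the formation of reactive oxygen species in cells, which can oxidise DNA, lipids and proteins. Damaged DNA stabilises the transcription factor p53, which induces its own antagonists, blockers of the cell cycle and genes of programmed cell death. The p53 target p21 keeps the DREAM repressor complex on cell cycle promoters, where it binds the CHR, a short element close to the start site of many genes of mitosis. NRF2 and HIF1A are the best known oxygen- and oxidant-responsive factors beside p53, and the lung endothelium is a known site of injury by oxygen.

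The cells were checked against their label with markers before any comparison. Of 27 pan-endothelial markers, 3 reached a mean of 5 FPKM over the 9 libraries and 7 passed the filter on low values. Flt1, a VEGF receptor, was at 41.6 ± 2.13 FPKM in RA (SD, n = 3). The defining genes Pecam1 and Cdh5 averaged 0.0756 and 0.0518 FPKM in RA, and Erg was listed at 0 in all 6 libraries. Of 10 kidney lineage markers, 5 reached that mean and 9 passed the filter, with Pax2 at 32.7 ± 0.819 and Pax8 at 28.5 ± 1.39 FPKM in RA. Of 10 markers of pericytes and smooth muscle, 8 reached that mean, but Myh11 was at 0.242 and Rgs5 at 0.745 in RA. It was also reached by 3 of 10 fibroblast markers, with Col1a1 at 205 ± 8.59 in RA. Of 12 epithelial markers, 3 reached it, with Krt18 at 54 ± 6.16 in RA. The data therefore go against the endothelial label. No other cell type is assigned, and the cells are called the cultures below. Summed pan-endothelial markers ranged from 61.7 to 66.7 FPKM in RA and from 60.5 to 68.5 in HO, and summed kidney markers from 95.3 to 95.9 and from 96.2 to 102, so the first sums overlapped and the second did not. Mural sums were 2964 to 3321 in RA and 2433 to 3330 in HO, and mesothelial sums 26.2 to 30.5 and 19.3 to 23.0. Of the 9 marker lists, 7 held no gene past the threshold. Notch3 of the mural list was higher and Wt1 of the mesothelial list was lower in HO, and the part of such cells in the results was not tested.

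A rough figure for depth was 21300000 to 26500000 fragments per library. To obtain it, FPKM was multiplied by transcript length, and the value that recurred most often in a library was read as 1 fragment. Only 23 to 76 transcripts per library shared that value, so the figure has a weak basis. The typical spread between libraries of a group (median SD over genes, log2 scale) was 0.074 in RA and 0.123 in HO. HO replicate 3 stood apart from the other HO libraries in RNA classes: small structural RNAs took 20.61% of its FPKM, against 27.80% and 27.02% in HO replicates 1 and 2 and 21.86% to 25.44% in RA. Transcripts with a retained intron took 7.09% of its FPKM, against 5.49% and 5.26% in HO replicates 1 and 2 and 6.33% to 6.58% in RA. Their part in the results below was not tested, and counts with and without that library are given.

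After 48 h in 85% oxygen, 17 of 44 tested genes of the p53 lists (p53, its regulators and its targets) were higher. Of 73 tested genes of mitosis, 25 were lower, and most changes were small. Of 13831 genes tested, 273 passed an adjusted p under 0.05 (1.97%, limma with Benjamini-Hochberg adjustment), 167 of them higher in HO (1.21%) and 106 lower (0.766%). These shares are the background for the count of each list below. Of the 1411 tested genes in any of the 55 lists, 94 passed (6.66%), and the lists were chosen with earlier results known. With the FPKM as deposited, without rescaling, 103 were higher and 179 lower, and with equal totals 26 and 30, so the balance of the directions depends on the scaling. The median ratio of HO to RA means was 1.41 among the genes that rose and 0.69 among those that fell. The ratio reached 2 for 11 genes and was 0.5 or less for 13. In all 273 genes the 3 HO values lay outside the range of the 3 RA values, as they did for 2966 of all genes tested (21.4%).

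The number of genes past the threshold rested on single libraries. It was 3 without RA replicate 2 (Egr1, the miRNA gene model Gm47308 and a transcript with no gene name), 16 without RA replicate 3 and 26 without RA replicate 1. It was 103 without HO replicate 2, 225 without HO replicate 1 and 707 without HO replicate 3. Leaving out HO-rWNT5A replicate 1, 2 or 3, which enter neither group mean but share the estimate of the spread, left 176, 117 and 168. The filter and the scaling used all 9 libraries even where some were left out of the fit. With the HO and RA libraries fitted alone, 67 genes passed. Every one of the 273 genes that was still tested kept its direction in each of the 26 alternative settings. Since HO and RA did not overlap in any of the 273, leaving out libraries could not reverse a direction. The other settings used the same libraries that chose these genes, so the kept directions are no added support. Words such as "rose" and "fell" below refer to the fit on all 9 libraries.

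**Figure D1:**
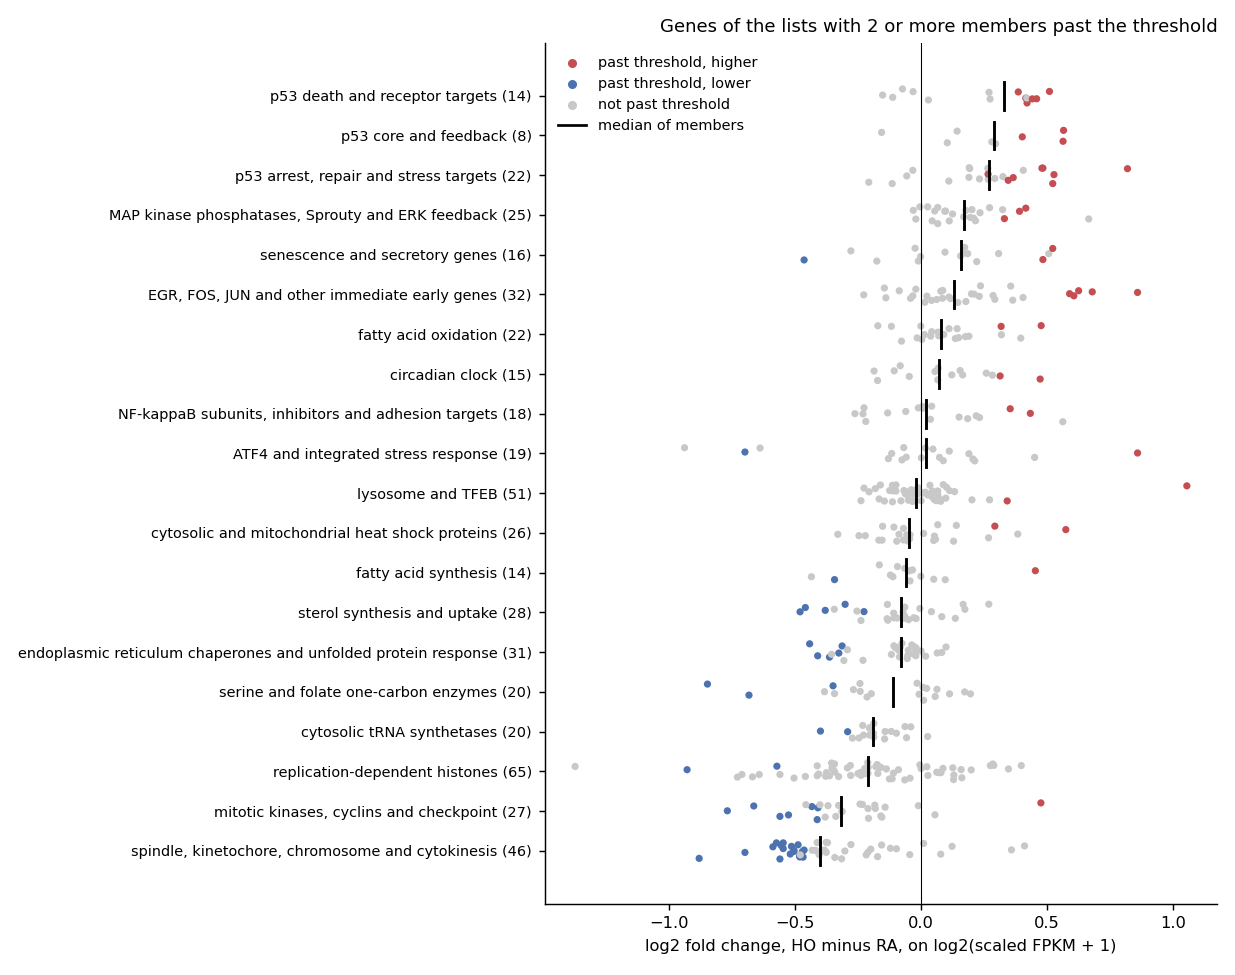
Log2 fold change (HO minus RA, on log2 of scaled FPKM + 1, horizontal axis) of each tested member of the 20 gene lists with 2 or more members past the threshold; numbers in brackets are members tested, coloured points passed the adjusted p and black bars are list medians. The 3 p53 lists lie to the right of 0, with medians of 0.27 to 0.33, and the mitosis lists to the left, with medians of -0.32 and -0.40.

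The 3 lists of p53, its regulators and its targets held 44 tested genes. Of these 17 rose and none fell, against 1.21% and 0.766% of all genes. Their median log2 fold change was 0.28, against -0.0039 for all genes tested, and 35 of the 44 were above 0 and 9 below it. Of the core and feedback genes, which include p53 itself, 3 of 8 rose. Of the genes of arrest, repair and stress, 8 of 22 rose, and of the genes of cell death and its receptors, 6 of 14 rose.

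The feedback genes hold p53 in check or tune its activity. Mdm2, the ubiquitin ligase that marks p53 for destruction (mm10 chr10:117688875-117710758, minus strand), was at 156, 158 and 146 scaled FPKM in RA and at 209, 217 and 258 in HO. The HO values all lay above the RA values, with the highest in HO replicate 3, and the log2 fold change was 0.57 ± 0.092 (SE; limma adjusted p = 0.0196). Ppm1d, a phosphatase that switches the damage response off, was at 5.66, 5.74 and 5.36 in RA and 7.35, 7.85 and 7.92 in HO, also without overlap. Trp53inp1, a stress protein that promotes p53 activity, rose from 45.2 ± 2.25 to 67.4 ± 5.76 (SD, n = 3 each). The mRNA of p53 itself, Trp53, was at 37, 35.1 and 31.8 in RA and 43, 44.9 and 39.2 in HO, with a log2 fold change of 0.28 ± 0.076 that missed the threshold (limma adjusted p = 0.0923).

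Among the genes of growth arrest, Cdkn1a encodes p21, the inhibitor of cyclin-dependent kinases (mm10 chr17:29090976-29100727, plus strand). It was at 212, 201 and 205 scaled FPKM in RA and at 285, 323 and 259 in HO. The lowest HO value was above the highest RA value, and the log2 fold change was 0.48 ± 0.081 (limma adjusted p = 0.0207). Btg2, an antiproliferative partner of mRNA deadenylases, was at 51.5, 47.4 and 49.7 in RA and 71.6, 67.9 and 68.9 in HO, again without overlap. Zfp385a, a zinc finger protein that steers p53 towards arrest, had the largest rise of the p53 lists, 1.95 times, with 4.98, 4.50 and 4.55 in RA and 7.71, 11.5 and 8.25 in HO. Gdf15, a secreted stress hormone, rose from 78.6 ± 0.716 to 114 ± 13.6. Ddit4 and Ddit4l, inhibitors of the growth kinase mTORC1, rose 1.47 and 1.31 times. The repair nuclease gene Ercc5 rose 1.22 times and Ei24, an endoplasmic reticulum protein of autophagy, 1.28 times.

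Of the death genes, Pmaip1 encodes NOXA, which neutralises survival proteins of the BCL2 family, and it was at 73.5, 69.3 and 61.1 scaled FPKM in RA and 85.2, 107 and 99.4 in HO. Fas, a death receptor, was at 11.5, 11.5 and 10.2 in RA and 16.3, 13.8 and 15.1 in HO. In both genes the groups did not overlap, and the log2 fold changes were 0.51 ± 0.098 and 0.42 ± 0.072. Tnfrsf10b, the receptor of the ligand TRAIL, rose 1.35 times, and Eda2r, a receptor of the ectodysplasin family, rose 1.37 times. Pidd1, a scaffold that activates caspase 2, rose 1.41 times. Apaf1, the core of the apoptosome, rose 1.33 times. Bax, the pore-forming member of the BCL2 family, was at 94.3, 93.7 and 96.1 in RA and 122, 131 and 94.3 in HO, where replicate 3 fell within the RA range, and it did not pass (limma adjusted p = 0.200). Among the 21 tested BCL2 family members and caspases of a separate list, none passed, with a median log2 fold change of 0.07.

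The p53 count was lost without a room air library: 0 of the 44 genes passed without RA replicate 2 or RA replicate 3, and 3 without RA replicate 1. It was 15, 13 and 21 higher without HO replicates 1, 2 and 3, with 1 lower in the last case, and 5 with the HO and RA libraries alone, with equal totals or without the filter on low values. The median over the 44 genes stayed between 0.22 and 0.31 in all 26 alternatives.

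The p53 response element is known to consist of paired decamers, and the promoter windows of RefSeq (GRCm38.p6, 250 bases before to 50 after each start) were searched for a single decamer on both strands. Stretches of 3 genes that rose are shown because they hold it, with the decamers in capitals, 5' to 3' on the strand of the gene. The Cdkn1a stretch is chr17:29090891-29090952 (plus strand), Mdm2 is chr10:117710920-117710959 (minus) and Ppm1d is chr11:85311107-85311146 (plus).

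Cdkn1a: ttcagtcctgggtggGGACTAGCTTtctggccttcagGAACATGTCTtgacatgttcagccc

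Mdm2: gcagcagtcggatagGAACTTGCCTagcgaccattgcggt

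Ppm1d: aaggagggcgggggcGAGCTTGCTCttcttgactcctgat

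The decamers of Cdkn1a begin 73 and 51 bases before the start site of the window shown, and another window of that gene held none. The decamer of Mdm2 begins 186 bases and that of Ppm1d 132 bases before the start. The p53 decamer was in 36% of 25 windows of the arrest list, in 45.5% of 11 windows of the feedback list and in 11.8% of 17 windows of the death list, against 8.36% of all 32851 windows. None of the 4 windows of death genes that rose held it. Among all genes that rose it was in 7.45% of 161 windows, close to that share. A match is a description of letters, and binding was not measured.

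Many genes of mitosis fell. The list of mitotic kinases, cyclins and checkpoint genes and the list of spindle, kinetochore and cytokinesis genes held 73 tested genes, of which 25 fell and 1 rose, against 0.766% and 1.21% of all genes. The median log2 fold change over the 73 was -0.38, and 66 of them were below 0.

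Among the regulators, Plk1, the kinase that drives entry into and exit from mitosis (mm10 chr7:122159439-122169873, plus strand), was at 4.01, 4.15 and 3.61 scaled FPKM in RA and 1.98, 1.89 and 1.79 in HO. The ratio of means was 0.48 and the groups were far apart, with a log2 fold change of -0.77 ± 0.10 (limma adjusted p = 0.0112). Ccnb1, the cyclin of the mitotic kinase CDK1, was at 8.66, 9.01 and 8.10 in RA and 5.27, 5.37 and 4.53 in HO, 0.59 times the RA mean. Its paralog Ccnb2 fell to 0.61 times and Ccna2, the cyclin of S phase and early mitosis, to 0.72 times. Foxm1, a transcription factor of late cell cycle genes, was at 6.03, 6.19 and 6.20 in RA and 4.32, 4.27 and 4.51 in HO, values that scatter little within either group. Nek2 and Aurka, kinases of the centrosome, fell to 0.58 and 0.70 times. Cdk1 itself was at 5.75 ± 0.172 in RA and 4.41 ± 0.765 in HO and did not pass (limma adjusted p = 0.143). Gtse1 was the exception that rose, from 16.2 ± 1.09 to 22.9 ± 0.941. It encodes a microtubule-binding protein of G2 and is itself known as a p53-induced gene, and its log2 fold change was 0.48 ± 0.065.

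Of 46 tested spindle and cytokinesis genes, 18 fell and none rose. Prc1, the bundler of microtubules in the central spindle (mm10 chr7:80294450-80316259, plus strand), was at 8.95, 9.10 and 9.30 in RA and 5.04, 5.15 and 5.51 in HO. It had little scatter in either group and a log2 fold change of -0.70 ± 0.073 (limma adjusted p = 0.00854). Top2a, the topoisomerase that untangles sister chromatids, was at 10.7, 10.9 and 10.9 in RA and 7.5, 6.09 and 7.79 in HO. Mki67, the source of the proliferation marker Ki-67, was at 2.67, 3.41 and 3.10 in RA and 1.68, 2.05 and 1.84 in HO, 0.61 times the RA mean. The groups did not overlap in either gene. The kinesin motors Kif2c, Kif22 and Kif11 fell to 0.56, 0.57 and 0.59 times. Racgap1 and Anln, which shape the cleavage furrow, fell to 0.67 and 0.68 times. Pimreg, a regulator of the exit from metaphase, fell most, from 4.93 ± 0.463 to 2.25 ± 0.611. Birc5, which encodes survivin, was at 3.37 ± 0.510 in RA and 3.26 ± 0.689 in HO and was among the 28 tested members that did not pass.

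The mitosis counts varied like the total. Of the 73 genes, 3 fell without RA replicate 1, 0 without RA replicate 2 and 2 without RA replicate 3; 16, 12 and 28 fell without HO replicates 1, 2 and 3. With the HO and RA libraries alone 10 fell, and with equal totals or without the filter 5. Only 8 fell with a filter at 5 FPKM, under which fewer genes are tested. Leaving out HO-rWNT5A replicate 2 left 16. The median stayed between -0.52 and -0.16 in all 26 alternatives. In bulk RNA, fewer cells in mitosis and less of these mRNAs per cell cannot be told apart.

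**Figure D2:**
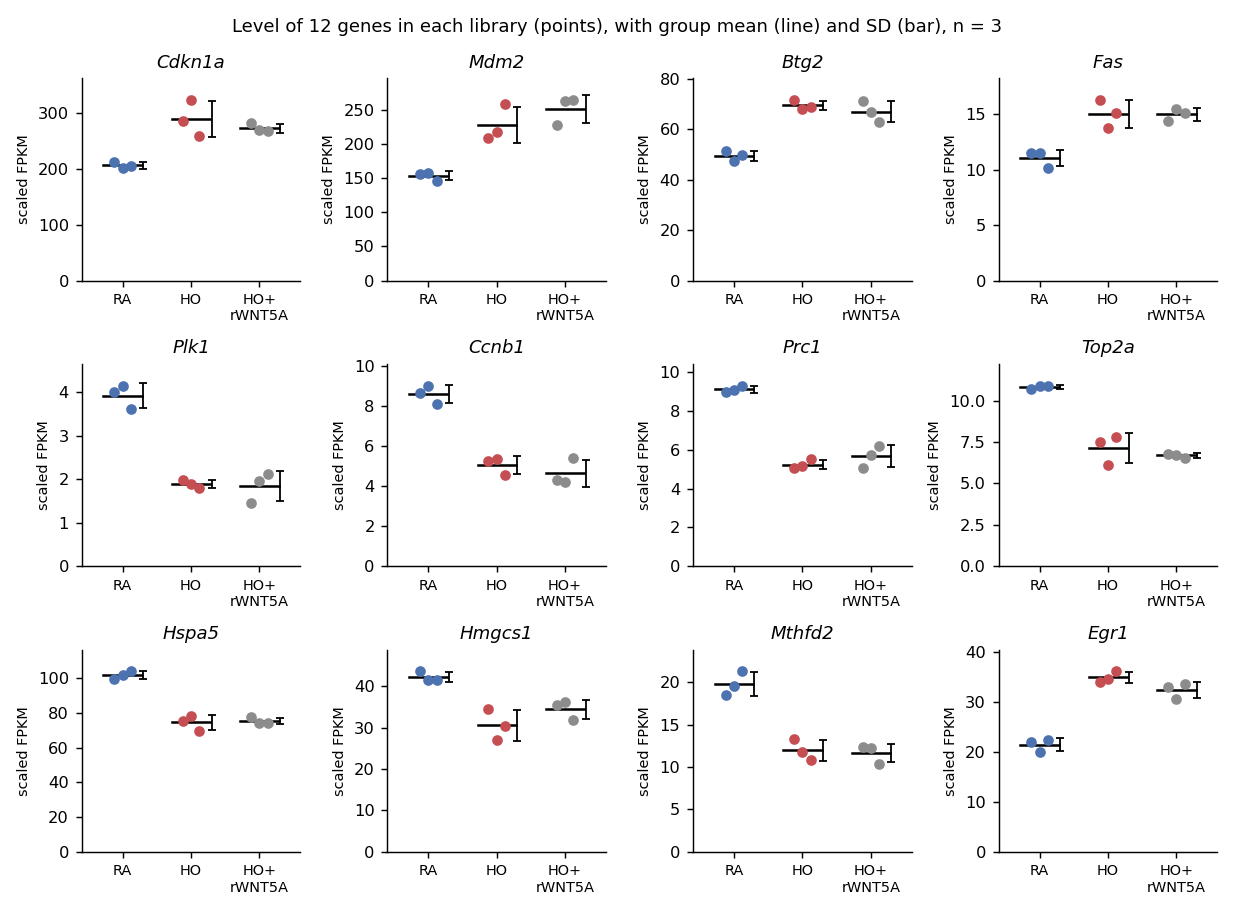
Scaled FPKM (vertical axes, from 0) of 12 genes in the RA, HO and HO-rWNT5A libraries; points are libraries, lines group means and bars SD (n = 3). All 12 genes passed the threshold, and in every gene that passed it the 3 HO values lie outside the range of the 3 RA values. The HO points lie above that range for Cdkn1a, Mdm2, Btg2, Fas and Egr1 and below it for the other 7.

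Most promoters of the mitosis genes that fell held the CHR. The motif was searched as TTTGAA or TTCGAA on both strands, so that it also reads TTCAAA on the strand of the gene. Of the 25 genes that fell, 19 had a RefSeq window among those used here, 20 windows in all, of which 17 held the CHR (85%), against 19.2% of all 32851 windows. In 15 windows (75%) it began within 40 bases before the start or after it, against 4.74% of all windows. The share at that position over all members of the 2 lists, changed or not, is not given here. The 7 stretches below, chosen after the matches were known, show that position; the CHR is in capitals, and each runs from 100 bases before to 25 after the start, on the strand of the gene. They lie at chr7:80294351-80294475 (plus; the first of 2 windows), chr11:99024165-99024289 (minus), chr19:37376282-37376406 (plus), chr7:127042396-127042520 (minus), chr9:61946775-61946899 (minus), chr15:99651632-99651756 (minus) and chr9:70421530-70421654 (minus).

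Prc1: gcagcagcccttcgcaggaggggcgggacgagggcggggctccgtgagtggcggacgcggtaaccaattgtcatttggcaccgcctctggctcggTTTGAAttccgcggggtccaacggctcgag

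Top2a: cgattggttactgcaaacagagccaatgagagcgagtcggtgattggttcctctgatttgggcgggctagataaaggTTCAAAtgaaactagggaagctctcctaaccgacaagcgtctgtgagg

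Kif11: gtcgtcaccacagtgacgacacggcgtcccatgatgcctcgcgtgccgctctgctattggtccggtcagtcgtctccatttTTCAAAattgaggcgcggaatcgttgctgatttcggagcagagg

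Kif22: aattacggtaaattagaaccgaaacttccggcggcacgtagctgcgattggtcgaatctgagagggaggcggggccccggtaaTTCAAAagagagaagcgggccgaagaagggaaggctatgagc

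Kif23: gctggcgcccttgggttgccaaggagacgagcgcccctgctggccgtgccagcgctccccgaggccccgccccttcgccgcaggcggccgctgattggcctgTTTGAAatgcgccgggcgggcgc

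Racgap1: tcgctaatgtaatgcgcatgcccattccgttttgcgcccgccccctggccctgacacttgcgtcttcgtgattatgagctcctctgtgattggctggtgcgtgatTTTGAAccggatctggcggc

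Ccnb2: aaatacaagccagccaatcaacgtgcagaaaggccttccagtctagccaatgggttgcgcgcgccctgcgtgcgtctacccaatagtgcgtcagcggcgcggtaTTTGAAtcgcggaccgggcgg

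In Prc1 the CHR begins 5 bases before the start, in Top2a 23, in Kif11 19 and in Kif22 17 bases before it. In Kif23, Racgap1 and Ccnb2 it begins at bases 3, 6 and 5 of the transcript. The CCAAT box, the letters CCAAT on either strand, was in 16 of the 20 windows (80%), against 37.4% of all windows, and it can share at most 1 base with the CHR. By list, the CHR was in 93.3% of the 15 windows of spindle genes that fell and in 79.2% of the 48 windows of that list's members with a window, whether they changed or not. For mitotic kinases, cyclins and checkpoint genes it was in 60% of the 5 windows of genes that fell and in 56.5% of the 23 windows of the list. It was in 13.7% of the 161 windows of genes that rose.

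**Figure D3:**
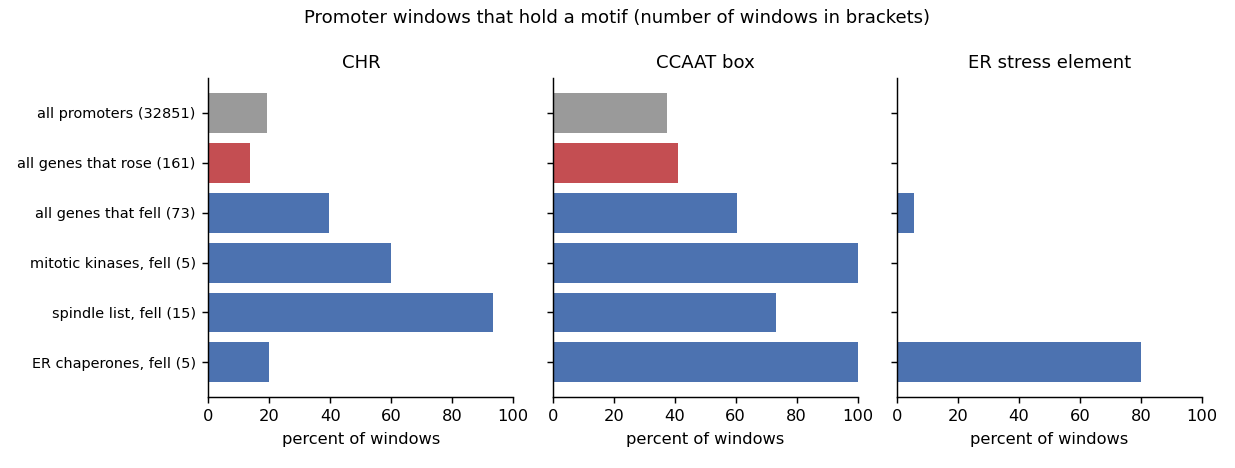
Percent of promoter windows (horizontal axes, from 0 to 100) that hold the CHR, the CCAAT box or the ER stress element, for all promoters, for all genes that rose or fell in HO, and for the members of 3 lists that fell; numbers in brackets are windows. The CHR stands at 93.3% in the spindle genes that fell against 19.2% of all windows, and the ER stress element at 80% of 5 chaperone windows against 0.119%. The shares over all members of these lists, changed or not, are not drawn. The text gives them for the CHR in both mitosis lists and for the ER stress element in the chaperone list. Those shares also lie above those of all windows, and the others are not given.

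Of 41 tested genes of DNA replication and nucleotide supply, 1 fell (2.44%, against 0.766% of all genes) and none rose. Their median log2 fold change was -0.10. Of the 41, 35 were below 0, and 14 were lower and 0 higher at an unadjusted p under 0.05. Mcm4, a subunit of the replicative helicase, was the gene that fell, at 8.88, 8.57 and 9.29 scaled FPKM in RA and 6.42, 6.93 and 6.45 in HO. None of 29 tested G1 cyclins, CDK inhibitors and E2F factors passed (median -0.06). Among 26 tested genes of DNA damage sensing and repair, Msh6, the mismatch recognition subunit, rose 1.39 times and none fell. That is 3.85% of the list, against 1.21% of all genes.

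Of 65 tested histone genes of the replication-dependent clusters, 2 fell (3.08%, against 0.766% of all genes). Hist1h1b, a linker histone, fell from 8.94, 9.58 and 11.6 in RA to 5.56, 4.95 and 3.89 in HO. Hist2h3c2, an H3 gene, fell from 20.6 ± 1.55 to 13.6 ± 2.40. The list's median in HO replicates 1, 2 and 3, relative to the RA mean of each gene, was 0.02, -0.05 and -0.50. In the HO-rWNT5A libraries it was -0.35, -0.44 and -0.41, so that HO replicate 3 lay with these and HO replicates 1 and 2 lay with RA. Without HO replicate 3, 4 histone genes were higher and 3 lower. The transcripts of these genes mostly lack poly(A) tails, and the libraries were made from total RNA. Lmnb1, a nuclear lamin whose loss is a known mark of senescence, fell from 6.20 ± 0.289 to 4.22 ± 0.405.

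Some chaperones of the endoplasmic reticulum (ER) fell. Of 31 tested genes of the ER chaperone and unfolded protein response list, 5 fell (16.1%, against 0.766% of all genes) and none rose. The median of the 31 was -0.08, and 27 of them were below 0. Hspa5, which encodes BiP, the main chaperone of the ER lumen (mm10 chr2:34771970-34777547, plus strand), was at 99.6, 102 and 104 scaled FPKM in RA and 75.6, 78.4 and 69.8 in HO. The groups were well apart, with a log2 fold change of -0.44 ± 0.057 (limma adjusted p = 0.0112). Hsp90b1, the ER member of the HSP90 family, was at 86.8, 88.4 and 90.9 in RA and 70.8, 60.9 and 67.9 in HO. The disulfide isomerases Pdia4 and Pdia6 fell to 0.79 and 0.77 times, and Dnajc3, a cochaperone of BiP, to 0.79 times. Of the 5, 4 passed without HO replicate 1 and 1 passed without RA replicate 1; none of the list passed without RA replicate 2 or RA replicate 3.

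The ER stress element, a composite of CCAAT and a downstream arm bound by the unfolded protein response factor ATF6, was in the windows of 4 of these 5 genes (80%), of 31% of the 29 windows of the list and of 0.119% of all windows. These stretches show it in capitals, as the 100 bases that end 36 bases before the start on the strand of the gene, at chr2:34771955-34772054 (plus), chr10:86705480-86705579 (minus), chr12:17266454-17266553 (plus) and chr14:118937797-118937896 (plus). Each copy includes a CCAAT box, read on the other strand in Hsp90b1.

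Hspa5: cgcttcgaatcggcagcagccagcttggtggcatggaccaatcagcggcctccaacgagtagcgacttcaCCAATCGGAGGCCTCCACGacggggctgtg

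Hsp90b1: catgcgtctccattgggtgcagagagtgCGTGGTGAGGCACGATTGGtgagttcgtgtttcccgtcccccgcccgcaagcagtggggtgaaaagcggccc

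Pdia6: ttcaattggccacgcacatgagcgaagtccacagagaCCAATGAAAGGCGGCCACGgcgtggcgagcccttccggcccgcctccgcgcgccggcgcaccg

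Dnajc3: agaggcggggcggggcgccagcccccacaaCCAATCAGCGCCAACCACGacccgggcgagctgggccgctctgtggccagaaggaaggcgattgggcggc

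Ddit3, the gene of the stress factor CHOP, was at 29.4 ± 3.22 scaled FPKM in RA and 30.9 ± 1.21 in HO and did not pass (limma adjusted p = 0.719). Of 26 tested cytosolic and mitochondrial heat shock genes, 2 rose: Hspa1b, an inducible HSP70 gene, from 2.38 ± 0.351 to 4.05 ± 0.718, and Dnajb1, its cochaperone, from 12.6 ± 0.551 to 15.6 ± 0.615. The 2 are 7.69% of that list, against 1.21% of all genes, and its median was -0.05. Hspa1b has a near-identical copy, Hspa1a, between which reads cannot be assigned with certainty.

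Some genes of cholesterol supply fell. Of 28 tested members of the sterol list, 5 fell (17.9%, against 0.766% of all genes) and none rose, with a median of -0.08. Hmgcs1, the synthase at the head of the pathway, was at 43.6, 41.6 and 41.4 scaled FPKM in RA and 34.4, 26.9 and 30.3 in HO. Every HO value was below every RA value, and the log2 fold change was -0.46 ± 0.085. Insig1, which retains the sterol sensor in the ER, was at 24.6, 22.7 and 21.7 in RA and 16.8, 17.6 and 14.4 in HO, again without overlap. Stard4, a cholesterol carrier, fell to 0.79 times. None of the 5 passed when any RA library was left out. In fatty acid synthesis, Lpin1, a phosphatidate phosphatase, rose 1.41 times and Acsl3, which activates fatty acids, fell to 0.75 times, among 14 tested.

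Genes of amino acid and one-carbon supply showed scattered falls. Mthfd2, the mitochondrial folate enzyme of proliferating cells (mm10 chr6:83305691-83325908, minus strand), was at 18.5, 19.6 and 21.3 scaled FPKM in RA and 13.3, 11.8 and 10.8 in HO. The groups lay well apart, and the log2 fold change was -0.68 ± 0.089 (limma adjusted p = 0.0112). Aldh1l2, another mitochondrial folate enzyme, fell from 3.91 ± 0.609 to 1.73 ± 0.408, and Psat1, of serine synthesis, from 30.7 ± 0.851 to 23.9 ± 1.77. These were the 3 of 20 tested members that fell (15%, against 0.766% of all genes), and none rose. Of 20 tested cytosolic tRNA synthetases, Lars and Eprs fell (0.75 and 0.81 times), and 19 of the 20 were below 0, with a median of -0.19. None of 17 tested mitochondrial synthetases passed, with a median of 0.00. Slc7a5, the transporter of large neutral amino acids, fell to 0.76 times, and Aldh18a1, which starts proline synthesis, to 0.72 times.

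Targets shared with the integrated stress response factor ATF4 went both ways. Of 19 tested, Trib3, a pseudokinase, fell from 6.10 ± 0.586 to 3.39 ± 0.609 and Atf3, a stress-induced transcription factor, rose from 2.83 ± 0.0237 to 6.05 ± 1.5. Atf4 itself was at 83.7 ± 4.23 in RA and 97.3 ± 7.92 in HO, and did not pass (limma adjusted p = 0.152). Asns, the asparagine synthetase gene, was at 37.8, 36.5 and 42.4 in RA and 30.8, 32.1 and 26.9 in HO and missed the threshold (limma adjusted p = 0.0561).

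Immediate early genes, which cells switch on within minutes of growth factor or stress signals, were measured here at 48 h. Of 32 tested, 5 rose (15.6%, against 1.21% of all genes) and none fell, with a median of 0.13. Egr1, a zinc finger factor, was at 21.9, 19.9 and 22.4 scaled FPKM in RA and 33.9, 34.6 and 36.1 in HO. It had the smallest adjusted p of all genes with a symbol (limma, 0.00338), a log2 fold change of 0.68 ± 0.061, and it passed in all 26 alternatives, with the largest adjusted p at 0.0428. Its paralog Egr3 was at 1.61, 1.5 and 1.72 in RA and 3.27, 2.90 and 2.93 in HO. Arc, a cytoskeletal early gene, rose 1.73 times and Fosl1, an AP-1 subunit, 1.58 times. Egr1 and Egr3 showed no overlap between groups.

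Of 25 tested feedback genes of the MAP kinase pathway, 3 rose (12%, against 1.21% of all genes) and none fell, with a median of 0.17. Spry4, a Sprouty inhibitor of growth factor signalling, was at 15.9, 13.7 and 14.5 in RA and 18.9, 18.6 and 18.5 in HO. Phlda1, an ERK-induced gene, rose 1.32 times and Epha2, a receptor tyrosine kinase induced by ERK, 1.34 times. These 3 calls were lost without any 1 RA library, without HO replicate 2 and with the HO and RA libraries alone.

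Of 18 tested NF-kappaB genes, 2 rose (11.1%, against 1.21% of all genes). Rela, the p65 subunit, was at 23.9, 23.9 and 23.2 in RA and 28.9, 34.0 and 28.9 in HO. Nfkbia, the inhibitor that the factor induces against itself, rose from 8.19 ± 0.0756 to 11.5 ± 1.67. Icam1, an adhesion molecule for leukocytes, was at 4.50, 4.54 and 3.74 in RA and 5.64, 8.05 and 6.75 in HO and missed the threshold (limma adjusted p = 0.0520). Among 10 tested cytokine, chemokine and prostaglandin genes, Lif, a cytokine of the interleukin 6 family, rose from 8.56 ± 0.460 to 13.1 ± 0.628. The other 18 genes of that list lay below the filter, Il6 among them at 0.819 ± 0.434 FPKM in RA and 0.686 ± 0.0855 in HO. Ptgs2, the inducible cyclooxygenase gene, was at 19.5 ± 0.872 and 28.3 ± 4.66 and did not pass (limma adjusted p = 0.0779).

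Antioxidant, mitochondrial and hypoxia genes gave few calls. None of 24 tested NRF2 genes passed, with a median of 0.11 and 21 above 0. Hmox1, the haem oxygenase gene, was at 25.5, 27.8 and 26.5 in RA and 26.4, 33.0 and 27.3 in HO, and Txnrd1, a thioredoxin reductase gene, at 127 ± 1.73 and 148 ± 17.6. Nqo1, a quinone reductase gene, lay below the filter, at 0.809 ± 0.198 in RA and 1.03 ± 0.279 in HO. None of 32 tested glutathione, peroxiredoxin and thioredoxin genes or of 9 superoxide, catalase and oxidase genes passed. Sod2, the mitochondrial superoxide dismutase gene, was at 10.9 ± 0.405 and 10.9 ± 0.324, with a log2 difference of -0.01 ± 0.055. None of 34 tested HIF targets and glycolysis genes passed, with a median of 0.00. A missed threshold does not show that these genes were alike in the groups.

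None of 75 tested nuclear-encoded subunits of oxidative phosphorylation passed. Their median relative to RA was 0.17, 0.16 and -0.13 in HO replicates 1, 2 and 3, so the HO libraries lay on both sides of RA. The 76 cytosolic ribosomal protein genes gave 0.11, 0.01 and -0.34 and no call. The median of each p53 and mitosis list had the same sign in all 3 HO libraries, for example -0.37, -0.45 and -0.36 for the spindle list. That also held for lists with no call, such as the BCL2 family and caspases (0.05, 0.06 and 0.10). A shared sign alone therefore does not set the p53 and mitosis lists apart. Pdk4, the kinase that closes pyruvate entry to the citric acid cycle, rose from 8.71 ± 0.437 to 12.5 ± 0.0953 and Cpt1c, a carnitine acyltransferase, 1.26 times, 2 of 22 tested genes of fatty acid oxidation. Gla and Fuca1, lysosomal glycosidases, rose 2.96 and 1.29 times, 2 of 51 tested lysosomal genes. The calls are 9.09% of the fatty acid oxidation list and 3.92% of the lysosomal list, against 1.21% of all genes.

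**Figure D4:**
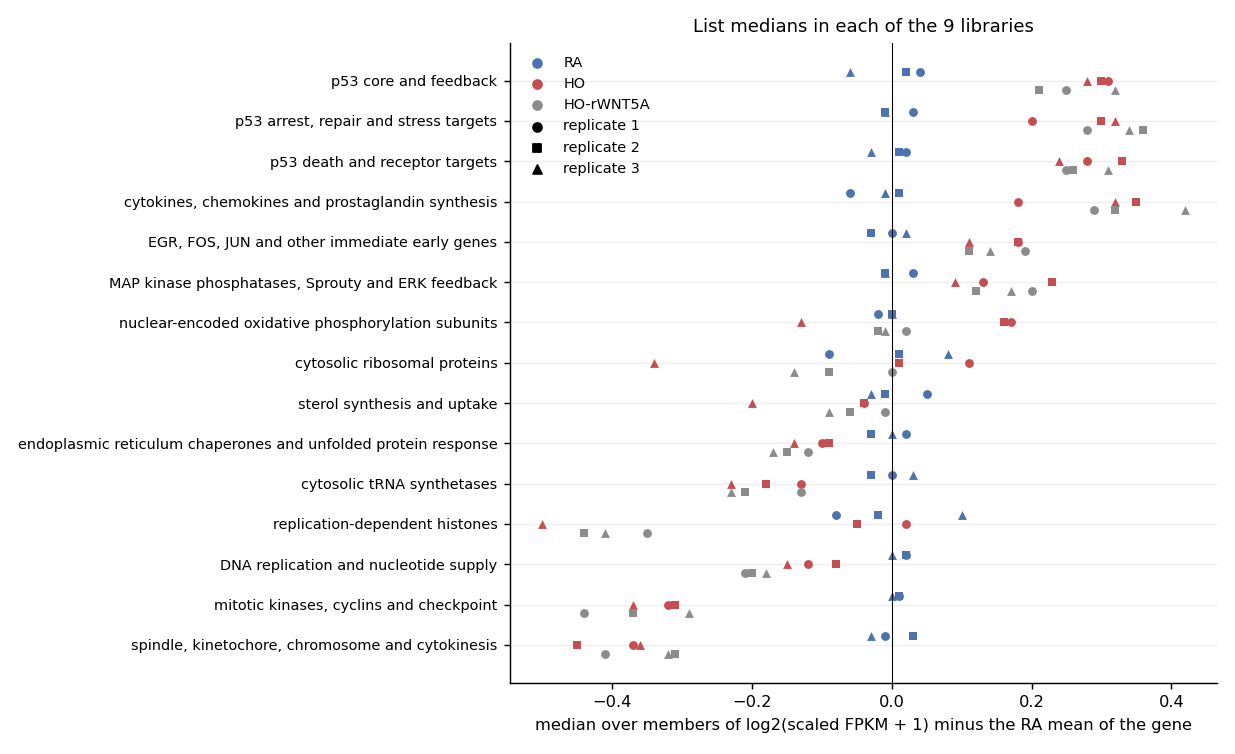
Median over the members of 15 gene lists of log2(scaled FPKM + 1) minus the RA mean of each gene (horizontal axis), for each of the 9 libraries; colour gives the group and shape the replicate. The HO libraries lie together for the p53 and mitosis lists, while HO replicate 3 is the lowest of the 9 for ribosomal proteins (-0.34) and oxidative phosphorylation (-0.13). For histones it lies (-0.50) near the HO-rWNT5A libraries (-0.35 to -0.44).

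Wnt5a, the ligand named in the title of the series, was at 27.2, 25.8 and 24.9 scaled FPKM in RA and 26.8, 29.9 and 30.5 in HO. The lowest HO value lay within the RA range, and the log2 difference of 0.16 ± 0.066 did not pass (limma adjusted p = 0.242). None of the 25 tested genes of WNT5A, its receptors and planar cell polarity passed, and none of 15 tested genes of the beta-catenin branch. Vessel and barrier genes gave the same count: none of 13 tested VEGF and angiopoietin genes and none of 21 tested junction genes passed. Among 14 tested integrins Itga6, a laminin receptor subunit, rose 1.30 times, and Notch3 rose from 4.76 ± 0.809 to 8.06 ± 1.15 among 16 tested Notch genes. Id1, a target of BMP signals, rose 1.41 times; its highest value, 61.4, was in HO replicate 2.

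The largest changes included gene models that cannot be read on their own. Gm45717 had the largest rise, 0, 0.198 and 0.633 in RA and 11.6, 1.37 and 9.92 in HO. All its RA values lay below 1 FPKM, so it was tested only because other libraries were higher. Neither its rank nor its lack of overlap is therefore added support. Gm45717 overlaps Ifitm2 on the same strand. The sum of the 2 genes was 27.2, 26.5 and 28 in RA and 32.1, 28.9 and 25.6 in HO, which overlap. Tomm6, of the mitochondrial import pore, rose while the overlapping Gm21981 had the largest fall of protein-coding genes; their sum was 30.2, 37.7 and 27.4 in RA and 49.6, 54.1 and 44.8 in HO, which do not overlap.

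Of the other genes with the largest changes, Nptx1, a neuronal pentraxin, was at 1.88, 2.24 and 1.71 in RA and 3.41, 5.94 and 5.17 in HO. Prrg4, a membrane protein with a Gla domain, rose 1.93 times, and Pltp, a phospholipid transfer protein, 1.77 times. Rgcc, a regulator of the cell cycle, was at 0.414, 0.692 and 0.629 in RA and 1.45, 2.04 and 1.70 in HO, low levels without overlap. All its RA values lay below 1 FPKM, the mean that a gene had to reach to be tested. It was tested only because other libraries were higher, so the lack of overlap is no added support. Lsp1, an actin-binding protein, fell from 50.9 ± 3.85 to 28.5 ± 4.89 and Iqgap3, a scaffold of proliferating cells, to 0.56 times. Nr1d1 and Cry1, repressors of the circadian clock, rose 1.47 and 1.29 times, 2 of 15 tested clock genes.

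The HO-rWNT5A libraries, which share the RA controls and the oxygen level, gave values beside these. Cdkn1a was at 282, 269 and 267 scaled FPKM there, Mdm2 at 228, 263 and 264, Plk1 at 1.45, 1.95 and 2.11 and Egr1 at 32.9, 30.5 and 33.5. These values lie outside the RA range on the same side as in HO. Of the 167 genes that rose in HO, 157 had all 3 HO-rWNT5A values above all RA values. Of the 106 that fell, 103 had them all below. The share of all genes tested for which this holds is not given here, so the excess over it is not known. For HO itself, 21.4% of all genes tested did not overlap RA. The controls are shared and the HO-rWNT5A libraries entered the fit that chose these genes, so the counts are no independent repeat.

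**Figure D5:**
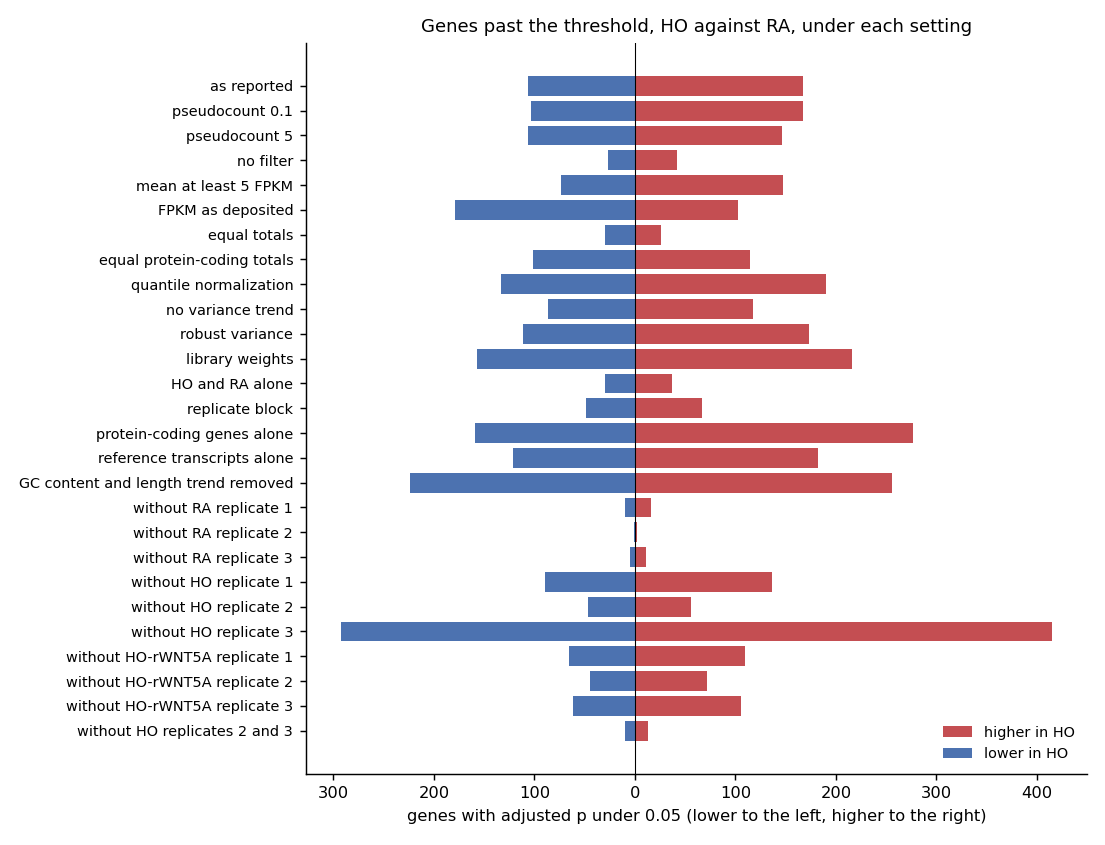
Number of genes past the adjusted p (horizontal axis; higher in HO to the right of 0, lower to the left) as reported and under each of 26 alternative settings. The total is 273 as reported, 3 without RA replicate 2 and 707 without HO replicate 3.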

How the data were processed

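Total RNA of 9 libraries was sequenced. Per the labels' protocols, the authors trimmed reads with Skewer (version 0.2.2), aligned them with STAR (2.5.3a) to an Ensembl genome and assembled transcripts with StringTie (1.3.1) and gffcompare (0.9.9c). The processing notes list both mm10 and hg38, and the transcript names are mouse. The authors deposited FPKM per transcript for each library, without counts. Their strand setting is not given in the sources used here, so overlapping and antisense genes are uncertain.

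FPKM of 143043 transcripts were summed per gene through the GENCODE M21 annotation of mm10 (99.36% of Ensembl transcripts matched), scaled by median ratios, and log2(FPKM + 1) was tested with limma 3.58.1 (R 4.3.3; trended empirical Bayes, all 9 libraries, 6 residual degrees of freedom) for the 13831 genes averaging 1 FPKM or more. Fold changes are on that scale and understate changes of low genes. Adjusted p under 0.05 (Benjamini-Hochberg over all genes) was the threshold; 3 libraries against 3 cannot go below 0.1 in an exact permutation test, so none is given. Values with ± are SD of scaled FPKM (n = 3) or, for fold changes, SE. Only 4.9% to 6.3% of values were whole multiples of 1 fragment's worth within 0.02, so counts were not recovered and no count test was run. The fit was tested on simulated data. No other sample column was in the table (0 left out).

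The comparison, the gene lists and the motifs were chosen with earlier results of these data known. Named genes are the top 15 protein-coding rises and top 15 falls by fold change among genes past the threshold without overlap, up to 8 members past the threshold of each list, with up to 3 others where fewer than 3 passed, and a set of genes named whatever their value; other genes were named after their values were seen. Promoter sequences are RefSeq's (GRCm38.p6), and 192 of the 273 genes had a window. Alternatives covered the pseudocount, filter, scaling, variance model, library weights, replicate block, gene set, GC content and length, and leaving out libraries. Some genes past the threshold are not reported here.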

Additional observations from a re-analysis of the deposited data

How the results depend on the processing

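Of the 26 alternatives, these moved the counts of genes past the threshold (in all, higher, lower) by more than 1.5 times. No filter gave 69, 42 and 27 and equal totals 56, 26 and 30. FPKM as deposited gave 103 higher and 179 lower, with the median of all genes at -0.06. HO and RA alone gave 67, 37 and 30. Protein-coding genes alone gave 436, 277 and 159, and removal of trends with GC content and length 480, 256 and 224. Without HO replicates 2 and 3 together the counts were 23, 13 and 10. Leaving out 1 library at a time gave 3 to 707 in all, 2 to 415 higher and 1 to 292 lower. The causes were not tested.

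Deviations of the same replicate number in RA and HO correlated at -0.085, -0.005 and -0.06 over genes, and those of unlike numbers at -0.089 to 0.172. The numbers thus gave no sign of pairing, but such correlations cannot show that the replicates were unpaired. The replicate block gave 116, 67 and 49. Of 243 genes named by the rule, 99 passed; over the alternatives 849 values of these 99 lost the threshold and 166 of the others gained it. The 99 kept their direction, which leaving out libraries could not reverse in groups that do not overlap. The others did not all keep theirs. The precision is limited by 3 libraries a group, and their depth is uncertain.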

Other observations

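Of the 273 genes past the threshold, 179 belonged to none of the 55 gene lists. Several are known from work on p53, and they are named here after their values were seen. Rbm38, an RNA-binding protein and p53 target, was at 10.7, 9.86 and 9.77 scaled FPKM in RA and 15, 17.1 and 14.5 in HO. Susd6, a membrane protein known as a p53 target, rose 1.29 times and Ppp1r13l, an inhibitor of p53, 1.52 times. Tnfrsf22 and Tnfrsf23, decoy receptors of TRAIL, rose 1.28 and 1.32 times. Traf4, an adaptor of receptor signalling, rose from 26.0 ± 0.990 to 41.2 ± 4.61, and Sertad1, a cell cycle regulator, from 24.8 ± 1.17 to 39.2 ± 5.61. Pml, the organiser of nuclear bodies, rose 1.31 times.

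Among the falls outside the lists, Cdkn3, a phosphatase of cyclin-dependent kinases, was at 1.91, 2.19 and 2.16 in RA and 1.06, 1.28 and 1.18 in HO. Dbf4, the activator of the kinase CDC7 at replication origins, fell to 0.74 times. Syne2, a linker of the nuclear envelope, fell from 14.6 ± 0.183 to 10.2 ± 0.518. Sec24d and Lman1, which load cargo for export from the ER, fell to 0.79 and 0.84 times. Wt1, a transcription factor of mesothelium and kidney, fell from 27.2 ± 2.31 to 20.3 ± 1.94. One transcript with no gene name, ENSMUST00000238368, was listed at 0 in all 3 HO libraries. It was tested only because libraries of the other groups were higher, so these values are no added support.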
